A study of Homo sapiens with 8 samples.

Results

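Desmosomes are the spot-like junctions that hold neighbouring epithelial cells together. The deposited regions bound by p63, the transcription factor of basal keratinocytes and squamous tumours, were described around 10 desmosome genes: DSC2, DSC3, DSG1, DSG2, DSG3, JUP, PKP1, PKP3, DSP and PERP. A region was taken as a member when its midpoint lay in 1 of 6 hg19 windows. The first was the DSC/DSG window on chromosome 18 from 28.50 to 29.20 Mb. The others were DSP on chromosome 6 from 7.45 to 7.65 Mb, PKP1 on chromosome 1 from 201.20 to 201.35 Mb, PKP3 on chromosome 11 from 0.34 to 0.46 Mb, JUP on chromosome 17 from 39.87 to 40.00 Mb and PERP on chromosome 6 from 138.35 to 138.50 Mb. These windows held 28 of the 13829 regions of CAL27 and 21 of the 5886 regions of SCC13, which made 35 distinct regions of 15267 in all.

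CAL27, an oral squamous carcinoma line, and SCC13, a skin squamous carcinoma line, were compared. Both were labelled WT with treatment None, and chromatin crosslinked with 1% formaldehyde for 10 min was precipitated with a p63 antibody. CAL27 was grown in DMEM F:12 with 10% FBS, and SCC13 in Keratinocyte-SFM with bovine pituitary extract, EGF at 0.2 ng/ml and CaCl2 at 0.3 mM, so line and medium cannot be told apart. Of the 8 samples in 4 groups of 2, the 2 p63 samples of each line stood behind 1 list, and the samples titled none had no list of their own. A region had a position and a width, with no score, so binding strength, depth and the spread between replicates are unknown and no test between the lines was made.

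In a desmosome, the desmogleins (DSG) and desmocollins (DSC) are calcium-dependent cadherins that bind across the gap between cells. Inside the cell, the armadillo proteins plakoglobin (JUP) and plakophilins (PKP) tie them to desmoplakin (DSP), which holds the keratin filaments. PERP, a membrane protein of stratified epithelia known in mouse skin as a p63 target, is needed there for normal desmosomes. p63 acts as a dimer of dimers on a p53-family site and often binds far from gene starts.

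In the RefSeq gene order of GRCh38, the protein-coding genes DSC3, DSC2, DSC1, DSG1, DSG4, DSG3 and DSG2 follow each other without another in between. CDH2 lies before DSC3, and TTR after DSG2. The nearest coding neighbours were RIOK1 and SNRNP48 for DSP, IGFN1 and TNNT2 for PKP1, B4GALNT4 and SIGIRR for PKP3, HAP1 and P3H4 for JUP, and TNFAIP3 and ARFGEF3 for PERP. A region in a window was therefore not assigned to 1 gene, nor to an exon, an intron or a promoter, since no hg19 annotation was used here. PKP2, PKP4, CDSN, PPL and EVPL, other genes of desmosomes or of the envelope around them, were not analysed here.

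The letters of the hg19 regions were not analysed here. RefSeq promoters (GRCh38.p14, 250 bases before to 50 after a gene start) were read in their place for 9 of the 10 genes, as 11 promoters. PKP3 had none among them. Their positions are those of GRCh38 and cannot be set against the hg19 windows. Both strands were searched for CATG, any 6 bases and CATG again. This is a strict form of the cores of a pair of p53-family half-sites with no spacer. It was in 0 of the 11 member promoters and in 0.373% of 35116 promoters of 300 bases. A looser form that includes it, with each core reduced to C, any 2 bases and G, was in 10 of the 11, against 74.0% of all promoters.

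The AP-1 motif TGANTCA was in 1 member promoter, that of PERP, against 7.71% of all promoters. The forkhead motif GTAAACA, of interest because the title of the series names FOXK1, was in 2 member promoters, those of PERP and of a DSC2 start, against 3.42% of all. In PERP the forkhead match began at position -160 and the AP-1 match at -101 from the gene start. In DSC2 the forkhead match began at -53. A match is only a run of letters, and whether a factor was bound there was not measured. The 2 promoters are shown for these matches, which are in capitals; the forkhead motif was read on the opposite strand in both.
PERP promoter, GRCh38.p14 chr6:138107370-138107669, minus strand: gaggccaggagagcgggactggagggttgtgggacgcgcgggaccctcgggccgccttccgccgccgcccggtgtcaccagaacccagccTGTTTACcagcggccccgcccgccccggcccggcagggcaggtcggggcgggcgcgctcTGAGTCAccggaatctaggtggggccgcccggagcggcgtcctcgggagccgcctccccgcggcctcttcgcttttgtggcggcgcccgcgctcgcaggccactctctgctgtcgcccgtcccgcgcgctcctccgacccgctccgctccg
DSC2 promoter, GRCh38.p14 chr18:31101211-31101510, minus strand: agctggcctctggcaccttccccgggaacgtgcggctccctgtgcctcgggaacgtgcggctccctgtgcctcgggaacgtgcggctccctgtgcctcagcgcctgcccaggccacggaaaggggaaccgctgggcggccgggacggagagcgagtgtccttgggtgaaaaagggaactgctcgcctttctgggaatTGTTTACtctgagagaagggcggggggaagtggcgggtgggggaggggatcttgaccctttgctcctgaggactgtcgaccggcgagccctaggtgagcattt

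The promoters of DSG1 and DSG3, paralogs whose products are the autoantigens of pemphigus, shared a run of 20 letters, AAGTTTTTACCTGGGAGCAA. It was the longest shared run among 53 pairs of member promoters from different genes, in which the next longest was 12 bases and the median 9. It began at -120 in DSG1 and at -78 in DSG3, and no other gene among the 35116 promoters had it on either strand (2 promoters, 2 genes). The run was looked for after the promoters had been read. Both promoters are shown because the pair stood apart in this way, with the run in capitals.
DSG1 promoter, GRCh38.p14 chr18:31317910-31318209, plus strand: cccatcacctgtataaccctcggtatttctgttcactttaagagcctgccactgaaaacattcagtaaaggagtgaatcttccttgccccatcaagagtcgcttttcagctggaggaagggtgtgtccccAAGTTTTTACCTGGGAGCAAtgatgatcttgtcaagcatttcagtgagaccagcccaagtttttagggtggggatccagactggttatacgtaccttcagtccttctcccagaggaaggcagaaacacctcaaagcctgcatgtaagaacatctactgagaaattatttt
DSG3 promoter, GRCh38.p14 chr18:31447491-31447790, plus strand: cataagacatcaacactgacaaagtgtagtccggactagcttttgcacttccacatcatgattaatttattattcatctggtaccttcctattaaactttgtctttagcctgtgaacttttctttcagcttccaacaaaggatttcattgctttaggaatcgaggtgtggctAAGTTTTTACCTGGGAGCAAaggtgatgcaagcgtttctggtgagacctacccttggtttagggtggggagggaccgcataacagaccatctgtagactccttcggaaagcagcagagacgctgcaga

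Every one of the 6 loci had at least 1 p63 region listed in both lines. Of tiles of 700 kb laid along the genome, the width of DSC/DSG, 50.6% also held such a region. At the widths of the other windows 14.4 to 21.8% of tiles did so. Of the 28 CAL27 member regions, 14 were also in the SCC13 list, or 50.0% (95% exact Clopper-Pearson interval 30.6 to 69.4), beside 32.2% over the whole CAL27 list. Of the 21 SCC13 member regions, the same 14, or 66.7% (43.0 to 85.4), were in the CAL27 list, beside 75.6% over the whole SCC13 list. Start and end of each of the 14 were the same in both lists, as for all 4448 overlapping regions of the series, so a shared position or width is not a separate measurement in each line. Each whole-list share lay inside the interval of its members, so a difference of the members from the rest was not detectable with so few regions. These intervals cover counting error only.

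As listed, the lists were closer in number at these loci than over the genome. CAL27 had 1.33 times as many regions as SCC13 in the windows and 2.35 times as many in the whole lists. These ratios rest on the same counts as the shares above, for which no difference was detectable, and are not a separate result. CAL27 had more regions at 3 loci, PKP1, PKP3 and JUP. DSP and PERP had the same number in both lines, and the DSC/DSG window had more in SCC13. The 3 loci with more CAL27 regions were those of the armadillo proteins, a grouping seen after the counts were made. The whole CAL27 list was also the longer, by 2.35 times, so a higher CAL27 count is not particular to these loci. With neighbours within 12.5 kb counted once, JUP had 2 regions in CAL27 and 2 in SCC13.

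**Figure D1:**
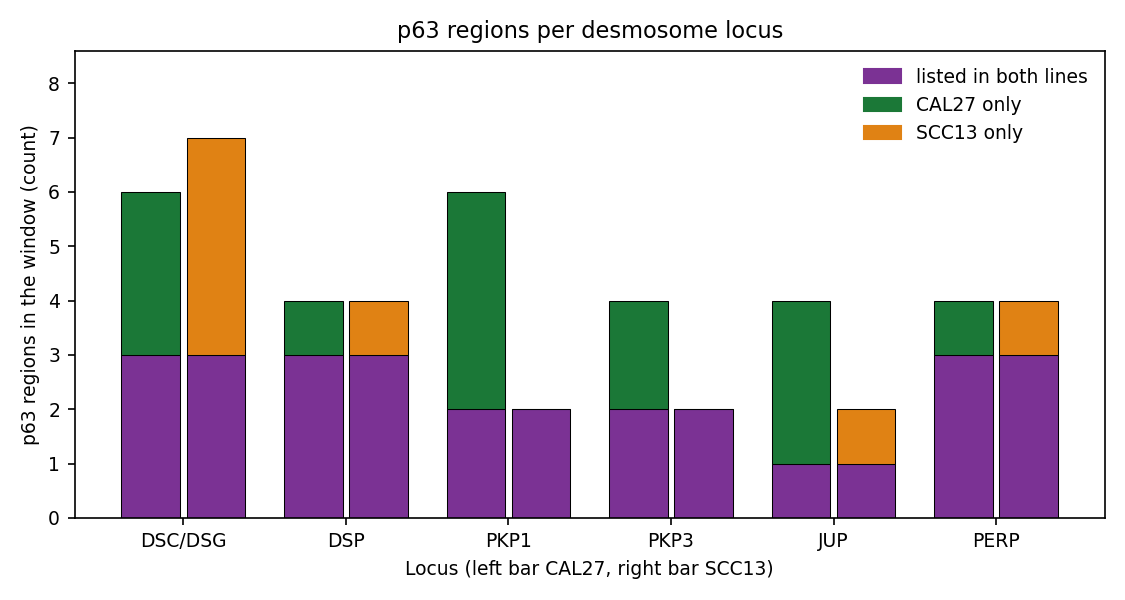
Number of p63 regions (y axis) in each desmosome window, with CAL27 as the left bar and SCC13 as the right bar of each pair; colours separate regions listed in both lines from those in 1 line. CAL27 had 6 and SCC13 had 2 regions at PKP1, against 6 in CAL27 and 7 in SCC13 at DSC/DSG.

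**Figure D2:**
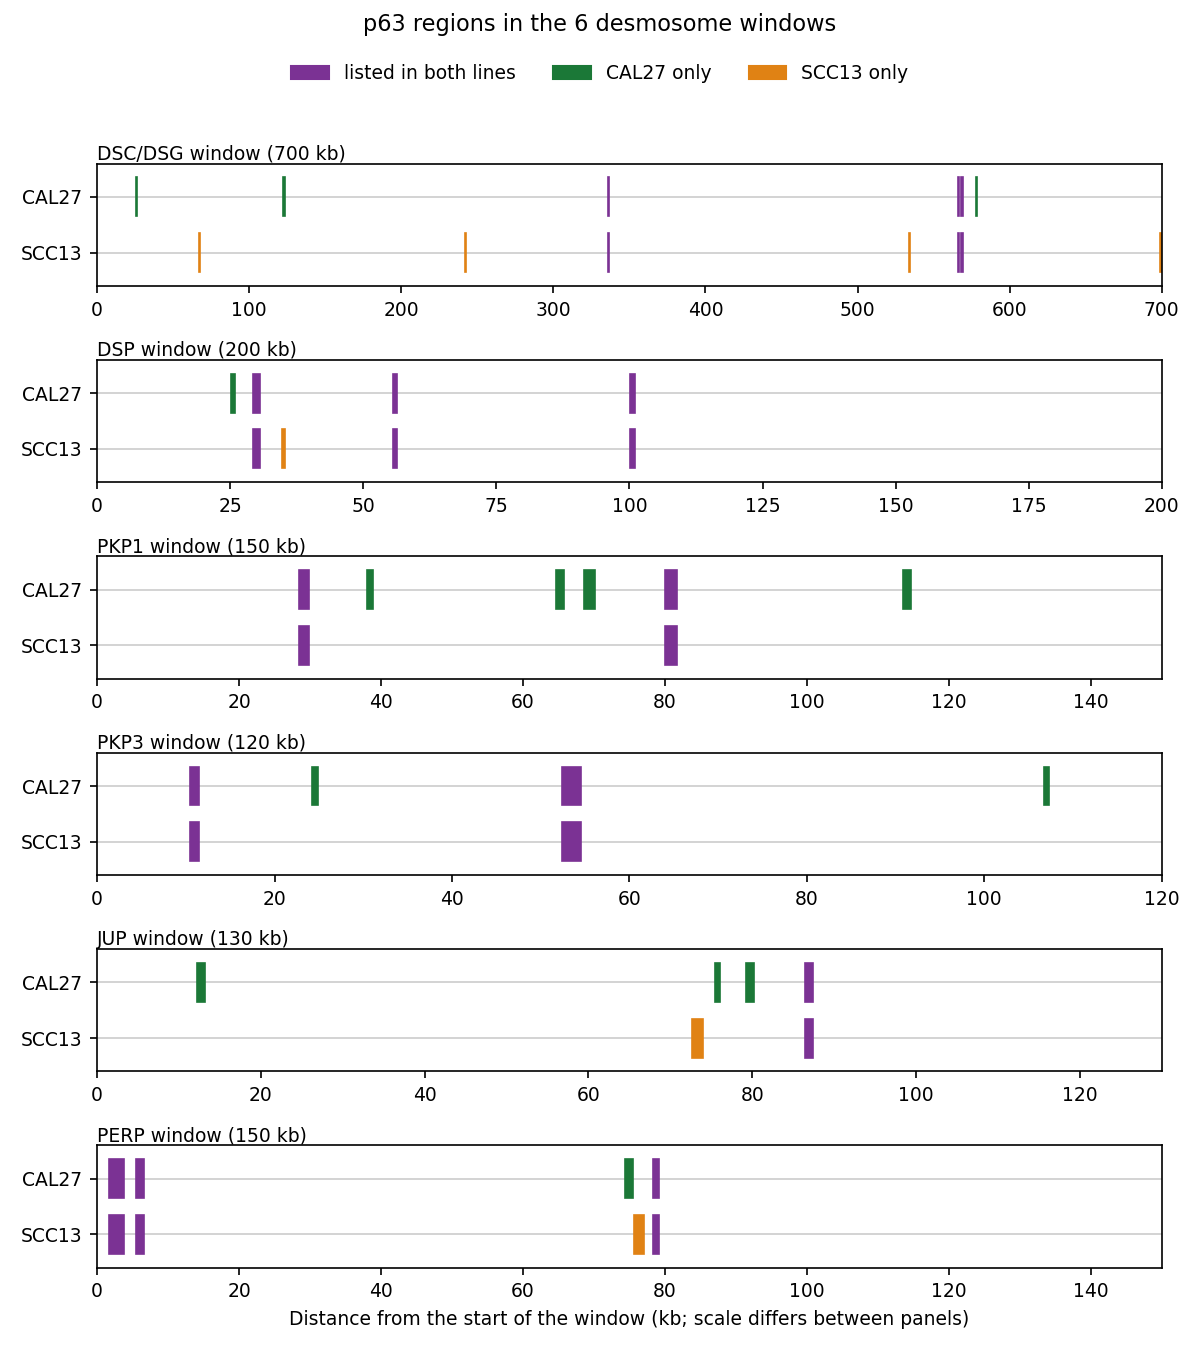
Positions of all 35 member regions by distance from the start of each window (x axis, kb), drawn to scale within a panel, with CAL27 above SCC13. Regions listed in both lines stand at identical places, and at JUP and PERP regions of 1 line lie beside regions of the other.

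The cadherin cluster was the widest window, at 700 kb, and the only one of the 6 with more SCC13 than CAL27 regions. It held 6 CAL27 and 7 SCC13 regions, 3 of them in both lists. Of the SCC13 regions there, 42.9% (exact interval 9.90 to 81.6) were in the CAL27 list, against 78.6% (49.2 to 95.3) at the other 5 loci, and these intervals overlapped. On the whole of chromosome 18 the figure was 69.7%. Its 7 SCC13 regions were matched or passed in 1.34% of tiles of 700 kb laid along the genome, and its 6 CAL27 regions in 20.8% of them.

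Few tiles had more SCC13 than CAL27 regions. Of the 3440 tiles of 700 kb that held any region, 8.87% had it. Among the 286 tiles with at least the 10 distinct regions of the cluster, 2 had it, or 0.699%. The CAL27 list was 2.35 times as long as the SCC13 list. The direction and the cut of 10 regions were taken from the cluster itself, so these percentages describe the cluster and test nothing. As listed, the excess is of 1 region, and 1 of the SCC13 regions is chr18:29199130-29199869, whose midpoint lay 0.501 kb inside the window's edge. With the windows narrowed by 20 kb on each side the cluster had 6 regions in CAL27 and 6 in SCC13. With only regions at or above the median width of their list, the order turned round, to 2 regions in CAL27 and 1 in SCC13. With neighbours within 12.5 kb counted once, it had 4 in CAL27 and 6 in SCC13.

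The 3 shared regions of the cluster were chr18:28835760-28836448 with a width of 689 bp, chr18:29065814-29066603 with 790 bp and chr18:29068272-29069166 with 895 bp. The last pair lay 1.67 kb apart. A CAL27-only region of 606 bp, chr18:29078030-29078635, followed 8.86 kb further on, so that CAL27 had a group of 3 regions over 12.8 kb and SCC13 a group of 2 over 3.35 kb. This was the only place in the cluster where midpoints of 1 list lay within 12.5 kb of each other.

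The other regions of the cluster were scattered. CAL27 alone had chr18:28525643-28526097, of 455 bp, and chr18:28622320-28623281, of 962 bp. SCC13 alone had chr18:28567236-28567738, of 503 bp, chr18:28742219-28742631, of 413 bp, chr18:29033929-29034332, of 404 bp, and the 740 bp region at the upper edge. The 413 and 404 bp regions were among the narrowest of their list, with 4.20% and 3.79% of all SCC13 regions narrower. Between chr18:28835760-28836448 and chr18:29033929-29034332 a stretch of 197 kb had no region of either line. The cluster had no close neighbours either. By midpoint, the next regions outside the window, chr18:27533508-27534164 and chr18:29888313-29888974, both in SCC13 only, lay 966 kb below and 689 kb above its edges.

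JUP encodes plakoglobin, which binds the tails of the desmosomal cadherins. Its window held 4 CAL27 and 2 SCC13 regions, and 1 was in both lists, chr17:39956464-39957361, of 898 bp. It was wider than 62.2% of CAL27 and 54.5% of SCC13 regions. CAL27 alone had chr17:39882173-39883118 of 946 bp, chr17:39945456-39946075 of 620 bp and chr17:39949186-39950261 of 1076 bp. SCC13 alone had chr17:39942657-39943975 of 1319 bp, which ended 1.48 kb before the 620 bp CAL27 region. The 3 CAL27 regions from chr17:39945456 to 39957361 spanned 11.9 kb, and the SCC13-only region lay just before them.

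PKP1 encodes plakophilin 1, the plakophilin of the upper epidermal layers, and its window showed the largest difference in number between the lines among the 6. With neighbours within 12.5 kb counted once, PKP1 had 3 regions in CAL27 and 2 in SCC13, a smaller difference than the 4 and 2 of PKP3. As listed, it held 6 CAL27 regions and 2 SCC13 regions, and both SCC13 regions were shared. As many CAL27 regions were found in 0.524% of tiles of 150 kb, the smallest percentage of the 6 windows in CAL27. As many SCC13 regions were found in 5.17% of tiles of this width, the largest among the 6 windows in SCC13.

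The shared PKP1 regions were chr1:201228382-201229787, of 1406 bp, and chr1:201280081-201281665, of 1585 bp. Of all CAL27 regions, 92.0% were narrower than the first and 95.5% narrower than the second. CAL27 alone had chr1:201238033-201238835 of 803 bp, chr1:201264656-201265748 of 1093 bp, chr1:201268593-201270155 of 1563 bp and chr1:201313583-201314636 of 1054 bp. All 6 were at or above the median width of the CAL27 list, 791 bp. The 1563 bp region lay 9.93 kb before the shared one of 1585 bp and was not listed in SCC13.

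PKP3 encodes plakophilin 3, which is found in most layers of stratified epithelia. Its window held 4 CAL27 and 2 SCC13 regions, with both SCC13 regions shared. The shared chr11:392405-394538 was 2134 bp wide, wider than 99.3% of CAL27 and 98.9% of SCC13 regions. The other shared region was chr11:350418-351498, of 1081 bp. The CAL27-only regions chr11:364232-364904, of 673 bp, and chr11:446729-447315, of 587 bp, were both narrower than the median of their list.

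DSP encodes desmoplakin, the link to keratin filaments, and its window had as many regions in CAL27 as in SCC13. It held 4 regions in CAL27 and 4 in SCC13, of which 3 were shared. The shared regions were chr6:7479301-7480672 of 1372 bp, chr6:7505595-7506340 of 746 bp and chr6:7550066-7551119 of 1054 bp. The region of CAL27 alone, chr6:7475240-7475836, and the region of SCC13 alone, chr6:7484767-7485352, were 597 and 586 bp wide. They flanked the 1372 bp shared region, the first 3.46 kb before it and the second 4.09 kb after it. The rest of the window was empty, with the midpoint of the last region 99.4 kb from its end. Just outside the lower edge, by 2.56 kb, lay a narrow SCC13-only region of 329 bp, chr6:7447273-7447601.

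At the edges used here, PERP had the most SCC13 regions per length of the 6 windows. With the windows narrowed by 20 kb on each side it had 2 SCC13 regions, against 4 at DSP, and with neighbours counted once it also had 2. Its window of 150 kb held 4 regions in CAL27 and 4 in SCC13, with 3 shared, and 0.292% of tiles of this width had as many SCC13 regions. The percentage for CAL27 was 3.22%. The shared chr6:138351659-138353842 was 2184 bp wide, the widest member, wider than 99.4% of CAL27 and 99.1% of SCC13 regions. A second shared region of 1098 bp, chr6:138355544-138356641, followed after 1.70 kb.

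The second PERP group lay 67.7 kb further on and held a region of each line side by side. The CAL27-only region chr6:138424340-138425505, of 1166 bp, and the SCC13-only region chr6:138425677-138427109, of 1433 bp, were 171 bp apart. A shared region of 802 bp, chr6:138428344-138429145, followed 1.23 kb after the second. Only 5 of the 9381 CAL27-only regions, 0.0533%, had an SCC13 region this close without overlap. The SCC13-only region was the 1 of 1438, or 0.0695%, with a CAL27 region this close. The distance of 171 bp was taken from this pair itself, so these percentages describe the pair and test nothing. All overlapping regions are identical in both lists, and the part of list making in this rarity was not tested. By midpoint, the first PERP region lay 2.75 kb inside the lower edge, and the next region below the edge, chr6:138334637-138335777, of 1141 bp and in both lists, lay 14.8 kb outside it. Above the upper edge a CAL27-only region of 580 bp, chr6:138509673-138510252, lay 9.96 kb outside.

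Some regions listed in 1 line lay close to a region of the other line. Of 14 CAL27-only members, 3 had an SCC13 region within 5 kb, or 21.4% (exact interval 4.66 to 50.8), beside 5.12% of all CAL27-only regions. Of 7 SCC13-only members, 3 had a CAL27 region within 5 kb, or 42.9% (9.90 to 81.6), beside 7.65% of all SCC13-only regions. The pairs at JUP and PERP count in both shares, and the intervals treat regions as independent. The median distance was 11.3 kb for CAL27-only members, against 109 kb for all CAL27-only regions. For SCC13-only members it was 31.5 kb, against 77.9 kb for all SCC13-only regions. The windows also held more regions per length than the genome at large, and the part of this in the shorter distances was not tested.

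**Figure D3:**
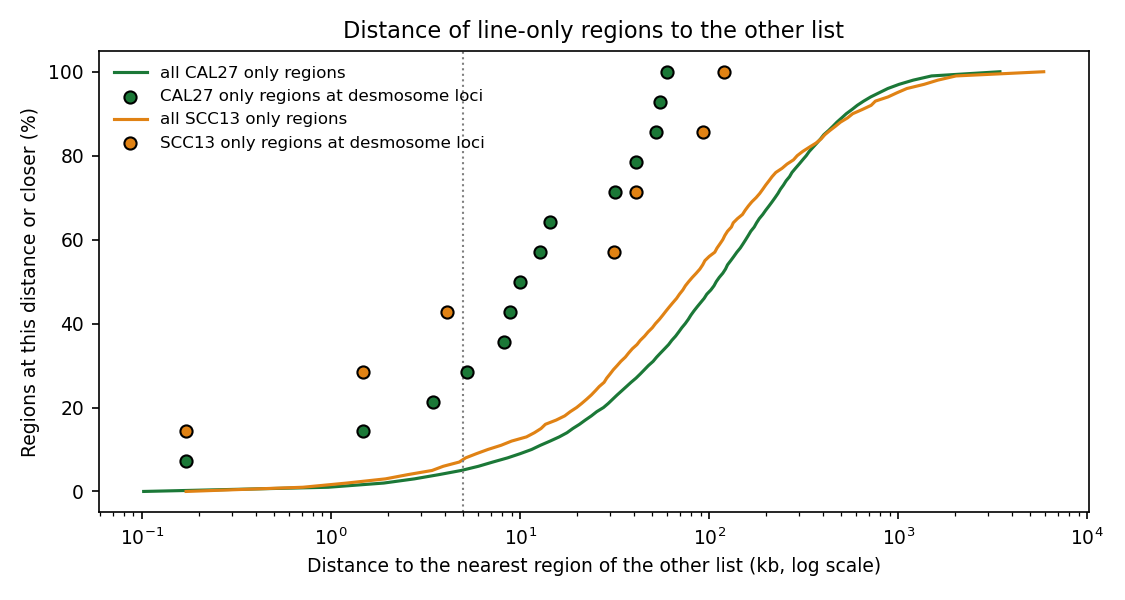
Distance from each region listed in 1 line to the nearest region of the other list (x axis, kb, log scale) against the percentage of regions at that distance or closer (y axis). Points are the 14 CAL27-only and 7 SCC13-only members, lines are all such regions, and the dotted line marks 5 kb; the medians of the members are 11.3 and 31.5 kb.

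Members of 1 list also lay near each other. In CAL27, 17 of the 28 members, or 60.7%, had a neighbour in the same list with its midpoint within 12.5 kb, beside 25.2% of all CAL27 regions. In SCC13, 8 of 21, or 38.1%, had one, beside 12.3% of all SCC13 regions. These members formed 7 groups in CAL27 and 4 pairs in SCC13. Being a neighbour is mutual, so no interval is given. Here too the windows held more regions per length than the genome at large, and the part of this in the shares was not tested.

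Among tiles of its own width, each window had a count that 2.34% of tiles or fewer reached in at least 1 line. This takes the lower percentage of each window. The higher ones ran from 3.22%, for PERP in CAL27, to 20.8%, for DSC/DSG in CAL27. The percentage of tiles with as many CAL27 regions was 5.82% for DSP, 2.01% for PKP3 and 2.34% for JUP. The percentage of tiles with as many SCC13 regions was 0.587% for DSP, 3.71% for PKP3 and 4.16% for JUP. Tiles take in gene-poor stretches, whereas each window was drawn around a gene, and the part of gene content in these percentages was not tested. The windows were also chosen with earlier results of these data known, so the percentages are a description only. Counts of shared regions were set against the same tiles: 3 or more were in 0.792% of tiles of 150 kb, as at PERP, in 1.50% of tiles of 200 kb, as at DSP, and in 13.3% of tiles of 700 kb, as at DSC/DSG. Tiles with 2 or more made up 3.64% at the width of PKP1 and 2.55% at that of PKP3, and tiles with 1 or more 15.4% at that of JUP.

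**Figure D4:**
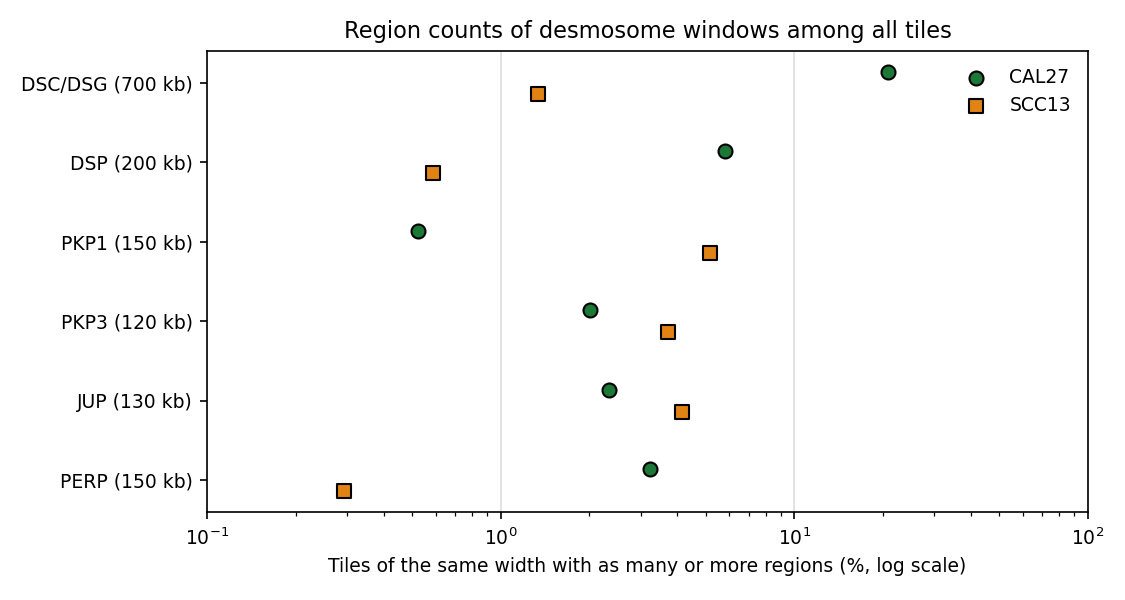
Percentage of all tiles of a window's own width that held as many or more regions (x axis, log scale), for each window (rows) in CAL27 (circles) and SCC13 (squares). PKP1 is lowest in CAL27, at 0.524%, and PERP in SCC13, at 0.292%, while DSC/DSG in CAL27 is highest at 20.8%.

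Member regions ranged in width from 455 to 2184 bp in CAL27 and from 404 to 2184 bp in SCC13. The median was 954 bp for CAL27 members, beside 791 bp for the whole list, and 898 bp for SCC13 members, beside 862 bp. At or above the median of the list were 19 of 28 CAL27 members and 12 of 21 SCC13 members, beside 50.0% of either list. The 14 shared members count in both, no interval is given, and whether members were wider than the rest was not tested. By class, the median was 1068 bp for the 14 shared members, 874 bp for the 14 CAL27-only members and 586 bp for the 7 SCC13-only members. Over all regions of these classes the medians were 934, 723 and 590 bp, in the same order. A shared region has the same width in both lists, so that width is not a separate measure of either line.

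By locus, the narrowest regions were those of the cadherin cluster, judged by the median. It was 740 bp at DSC/DSG, 877 bp at PKP3, 900 bp at DSP, 922 bp at JUP, 1132 bp at PERP and 1250 bp at PKP1 in the CAL27 list. In the SCC13 list it was 689 bp at DSC/DSG, 900 bp at DSP, 1108 bp at JUP, 1266 bp at PERP, 1496 bp at PKP1 and 1608 bp at PKP3, with 2 regions each at JUP, PKP1 and PKP3. In the cadherin cluster 2 of 6 CAL27 regions and 1 of 7 SCC13 regions reached the median width of their list. At PERP 4 of 4 CAL27 regions and 3 of 4 SCC13 regions did so. Regions covered 0.628% of the cadherin window in CAL27 and 0.633% in SCC13, and 3.50% of the PERP window in CAL27 and 3.68% in SCC13.

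**Figure D5:**
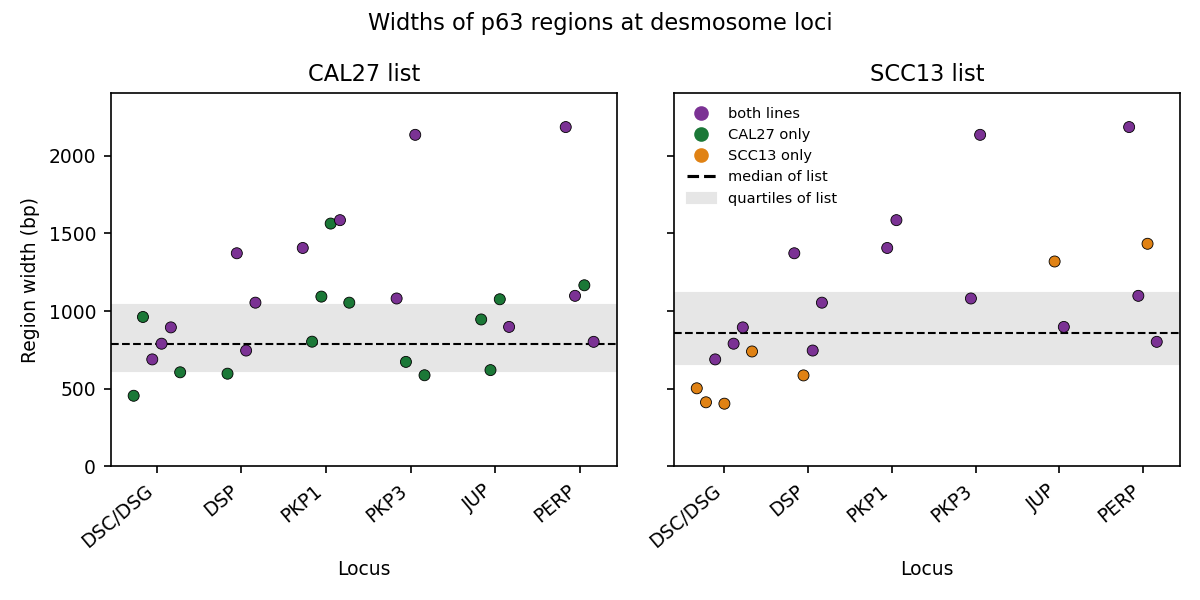
Width of each member region (y axis, bp) by locus in the CAL27 list (left) and the SCC13 list (right), with the median and quartiles of the whole list as dashed line and grey band. All 6 PKP1 regions of CAL27 are at or above the list median of 791 bp, and 1 of the 7 DSC/DSG regions of SCC13 is above that of 862 bp.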

How the data were processed

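For each line the authors deposited a single set of regions as chromosome, start and end in base pairs, without any other value. Bowtie2, SAMtools 1.8, MACS2 and the build hg19 stand in the submitters' processing notes with no roles. Peak thresholds, controls and the joining of replicates were not given in the sources used here. Positions are printed counted from 1.

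Regions matched at an overlap of at least 1 bp. Tiles of each window's width were laid from the first base of a chromosome to its last listed region, and a region was counted by its midpoint. Neighbours were joined at midpoints within 12.5 kb. Regions of 1 locus are not replicates, so shares have exact 95% binomial intervals and no test. The rule for named items took the 10 genes, with all regions of a locus that held 6 or fewer per list. For other loci it took the shared, the widest and the narrowest regions. DSC/DSG held 7 in SCC13, and its regions were all named nevertheless. The windows, genes and measures were chosen with earlier results of these data known, and the distances to the other list, the comparison of the sides of a tile and the shared promoter run after the values had been seen. A planned comparison of protein sequences was not made.

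Promoters came from RefSeq (GRCh38.p14), of which those of 300 bases were searched. The functions were tested on simulated lists. Calculations used Python 3.11.15, numpy 2.4.6, pandas 2.3.3, scipy 1.17.1 and matplotlib 3.10.9.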

Additional observations from a re-analysis of the deposited data

How the results depend on the processing

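No paired analysis was possible because each line has 1 list for both replicates, which also left no replicate to omit. No region has a score, so no stricter peak threshold was run. With neighbours within 12.5 kb counted once, CAL27 had 18 member regions in place of 28. With only regions at or above the median width of their list, SCC13 had 12 in place of 21. The looser motif was in 10 member promoters in place of 0. All other counts and shares over the 6 windows stayed within 1.5 times of the reported count, or inside its interval, under the other window edges, widths, joining distances and tile positions. The matching rules could change nothing, since all overlapping regions are identical. Leaving out each locus in turn gave 45.8 to 54.5% of CAL27 members and 63.2 to 78.6% of SCC13 members in the other list. In all, 14 values of single loci or distances moved by more than 1.5 times under an alternative. Windows narrowed by 20 kb left PKP3 with 2 CAL27 regions and 1 SCC13 region, and PERP with 2 in CAL27 and 2 in SCC13. A distance of 10 kb in place of 5 kb, chosen after seeing the data, took in 7 of 14 CAL27-only and 3 of 7 SCC13-only members. It took in about 9% of all CAL27-only regions and between 12 and 13% of all SCC13-only regions. Depth is unknown, so absence from a list does not show absence of binding.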
